A study of Mus musculus with 10 samples.

Results

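Imprinted genes, which are transcribed mainly from the copy inherited from 1 parent, were examined in single mouse embryos with and without Klf5. The set held 32 autosomal imprinted genes of the mouse, chosen by name with earlier results of these data known. Of these, 28 had at least 1 probe set annotated to that gene alone, among 66 such probe sets, and each was read at the probe set with the highest mean intensity over the 10 arrays. H19 shares its probe set with the microRNA gene in its transcript and was not named from it. The levels of Peg10, Peg12 and Zrsr1 were not analysed here. The arrays sum the transcripts of both parental copies, so they show the level of an imprinted gene and not which copy was used. Genes are called paternally or maternally expressed from textbook knowledge. Whether each is expressed from 1 copy in these embryos was not measured.

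Imprinting rests on DNA methylation laid down in the germ line at control regions that lie in clusters of genes. These marks survive the genome-wide loss of methylation before implantation because KRAB zinc finger proteins such as ZFP57 recruit TRIM28 and DNMT1 to them. At a smaller group of genes, among them Sfmbt2 and Gab1, the maternal copy is instead silenced in the early embryo by histone H3 methylation from the oocyte. Many imprinted genes act on growth: those expressed from the paternal copy often promote it, as Igf2 does, and those expressed from the maternal copy often restrain it, as Igf2r, Grb10, Cdkn1c and Phlda2 do. Several serve the placenta, whose founder tissue, the trophectoderm, is forming at this stage.

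The embryos were 5 wild-type (WT1 to WT5) and 5 Klf5 knockout embryos (KO1 to KO5), taken from the oviduct at E3.0 (3.0 days post coitum), each on its own Affymetrix array. The labels give no strain, litter, sex or description of the Klf5 allele, and nothing says that the embryos came from separate litters, so p-values measure the spread between these embryos. A level is the log2 of the intensity plus 16, and a difference is the KO mean minus the WT mean of such levels, a scale that compresses the differences of dim probe sets. Klf5, a Kruppel-like transcription factor, read 10.12 to 12.04 in the WT and 4.91 to 6.03 in the KO embryos, a difference of -6.04 (limma, adjusted p = 0.000162; exact two-sided permutation p = 0.00794, the smallest that 252 relabellings allow). All 12 marker genes of the preimplantation embryo, keratins of the trophectoderm among them, were above background; their summed intensity ran from 27300 to 45900 in the WT and from 9980 to 19100 in the KO embryos, and its part in the results was not tested. Of the cumulus and granulosa markers 3 of 8 were (Amh, Foxl2 and Nr5a2, the last also a gene of the early embryo), of the oviduct markers 2 of 7 and of the blood and immune markers 1 of 7. The summed intensity of the cumulus list was 577 to 2070 in the WT and 811 to 1530 in the KO embryos. The bioB hybridisation control was high on WT1 to WT3, KO1 and KO2 and low on the other 5 arrays, and WT4 and WT5 had the lowest 90th percentiles of intensity (422 and 427, against 472 to 553), so affected results are given with these arrays in view.

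Of the 28 genes, 12 were above background in these embryos. Background was set at 6.63, the 95th percentile of 46 chemosensory receptor genes, which serve sensory neurons, each at its brightest probe set. The 12 were Plagl1, Meg3, Igf2, Igf2r, Peg3, Kcnq1ot1, Gnas, Gab1, Sfmbt2, Impact, Mcts2 and Ube3a, 8 of 18 paternally and 4 of 10 maternally expressed genes. A further 7 lay between the level filter of the test (5.55) and 6.63: Snrpn, Cdkn1c, Phlda2, Ascl2, Ndn, Magel2 and Airn. The other 9 lay under the filter, with single embryos between 4.66 and 6.06: Mest, Grb10, Dlk1, Nnat, Sgce, Nap1l5, Zim1, Usp29 and Copg2. The lowest of the 12 were Sfmbt2 (mean 6.71) and Kcnq1ot1 (6.85), and the highest below the line was Snrpn (6.51). Plagl1 (5.90) and Kcnq1ot1 (6.61) had WT means under the line and passed it only through the KO embryos. Brightness also depends on probe sequence, so a probe set at background does not show that its gene is silent, and no order of level between genes is drawn. For Snrpn this matters: 5 further probe sets carry both Snurf, its partner on the same transcript, and Snrpn, and were not used, so its level is not settled by the probe set read here.

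**Figure D1:**
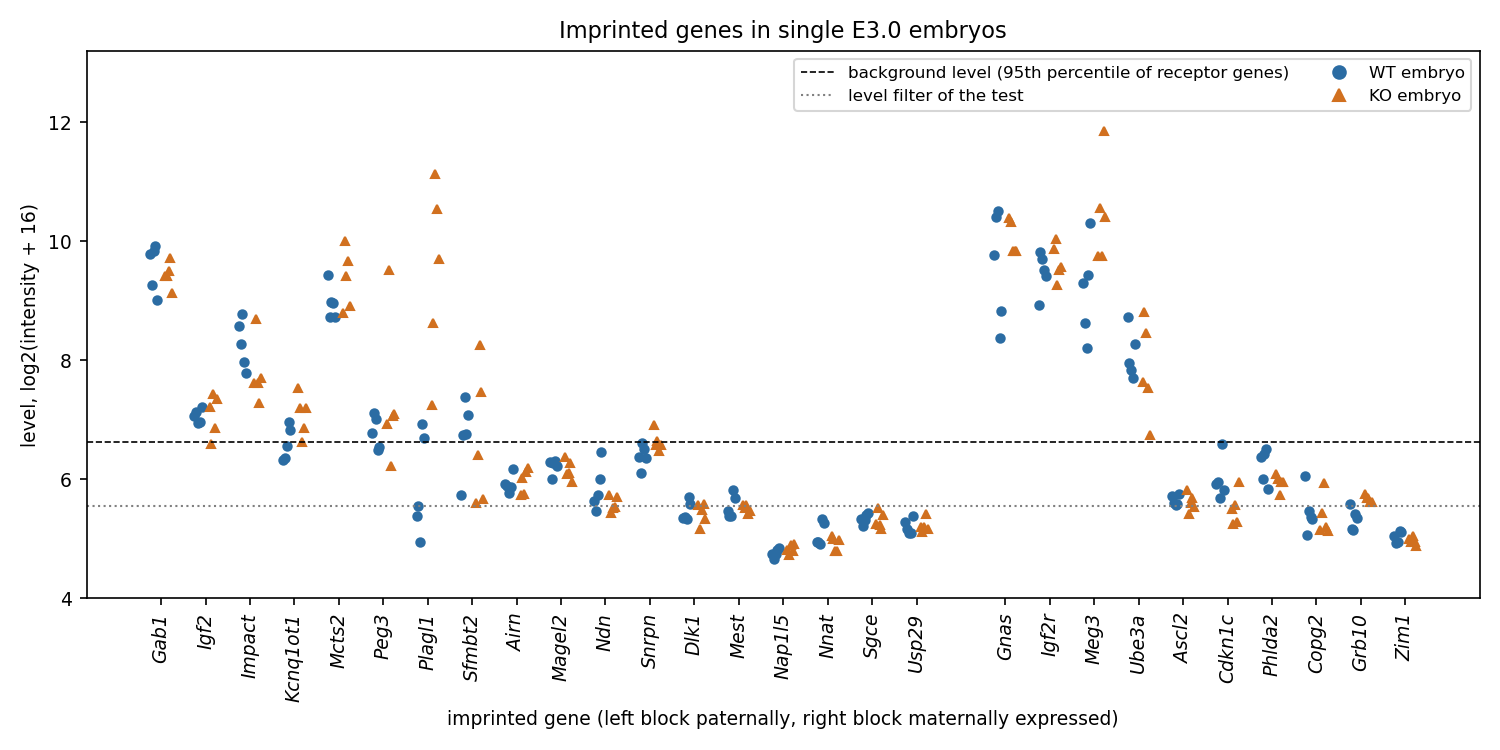
Level of each of the 28 imprinted genes, log2(intensity + 16), in every WT (circle) and KO (triangle) embryo, with the paternally expressed genes on the left and the maternally expressed ones on the right. The dashed line is the background level (6.63) and the dotted line the level filter of the test (5.55). In all, 12 genes have a mean above the dashed line. In Plagl1, and in Grb10 with its mean under the filter, the KO embryos lie above all WT embryos.

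The main comparison asked which imprinted genes differed between KO and WT embryos. Of the 19 imprinted genes tested, 0 passed an adjusted limma p of 0.05, where 0.503% of all genes tested did (63 of 12517, each at its brightest probe set, by limma). At an unadjusted p under 0.05 there were 4 of the 19 (21.1%, against 11.1% of all genes). Plagl1, Meg3 and Kcnq1ot1 were higher and Cdkn1c was lower in KO embryos, and of all genes 5.36% were higher and 5.78% lower at that level. Fewer cells of a type and less RNA per cell cannot be told apart in whole embryos. The difference was positive in 10 and negative in 9, with a median of 0.02, against a median of -0.01 over all genes tested. The medians were 0.03 over the 12 paternally and -0.03 over the 7 maternally expressed genes tested. In 1 of the 19, Plagl1, the KO embryos lay wholly on one side of the WT embryos, which held for 2.77% of all genes tested, 1.12% with the KO embryos above. Read at every tested probe set in place of the brightest, 0 of 34 probe sets of these genes passed the adjusted threshold, against 0.367% of all probe sets, and 8 had an unadjusted limma p under 0.05, against 10.1% of all probe sets. Of these 8, 4 were probe sets of Meg3. A simulation gave each tested probe set independent normal noise of its own within-genotype SD, and altered some drawn from all of them. The test found 64% of those altered by 1 log2 unit and 18% of those altered by 0.5. With 5 embryos per genotype most differences of 0.5 would thus be missed. The simulation was not made for these genes. Those above background had a median SD percentile of 71.9 among probe sets of like mean level, so how many of their differences the test could find is not known.

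**Figure D2:**
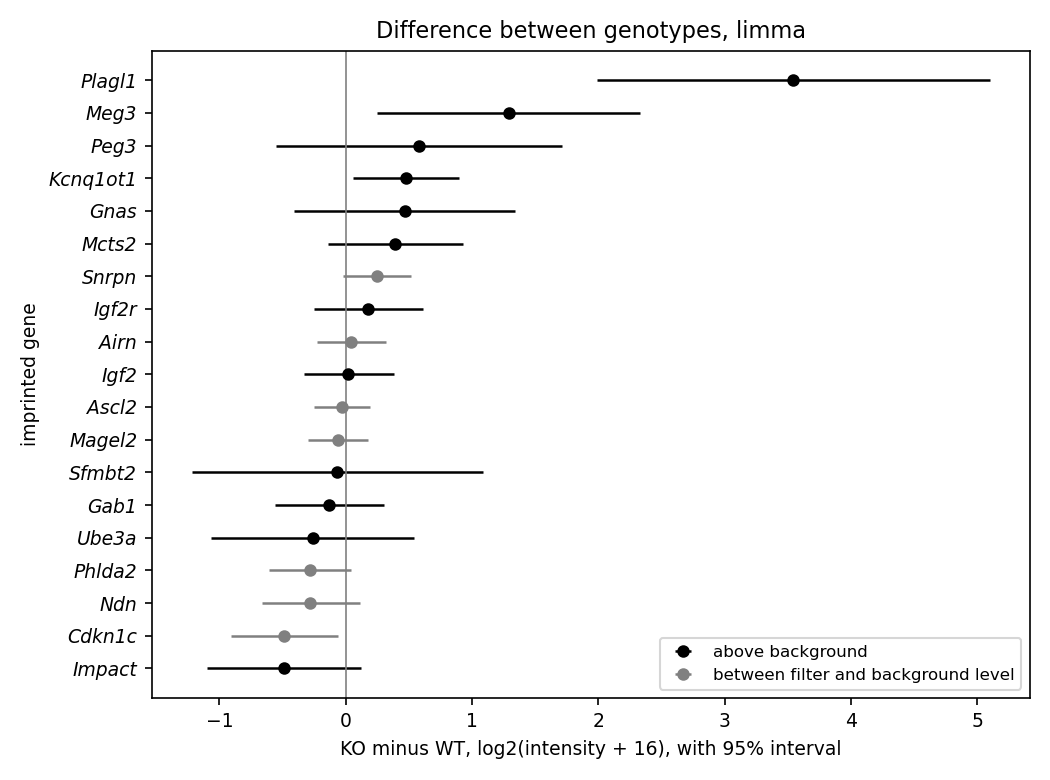
Difference between genotypes (KO minus WT, log2 scale) for the 19 imprinted genes tested, with the 95% interval from limma; black points are above background, grey points between the level filter and background. Plagl1 stands at 3.54 with an interval of 1.99 to 5.10, and the intervals of Meg3, Kcnq1ot1 and Cdkn1c also leave out 0, although none of the 19 passed after adjustment over all probe sets.

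Plagl1 encodes a zinc finger transcription factor that restrains the cell cycle and acts within a network of imprinted growth genes. It had the widest difference of the set. Its brightest probe set (1426208_x_at) read 5.39, 5.55, 4.94, 6.92 and 6.70 in WT1 to WT5, and 7.24, 8.62, 11.13, 10.54 and 9.70 in KO1 to KO5. Every KO embryo was above every WT embryo, and KO3, KO4 and KO5 were the highest. The intensity was 14.7 to 105 over the WT and 135 to 2220 over the KO embryos. The WT mean was 5.90 ± 0.86 and the KO mean 9.44 ± 1.55 (SD, n = 5), so the gene counts as above background only through the KO embryos. The difference of 3.54 ± 0.70 (SE) had an unadjusted p of 0.000439 and an adjusted p of 0.0722, which misses the threshold.

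The Plagl1 level also followed the bioB sets. Within each genotype the low-bioB arrays were the higher ones: WT4 and WT5 were above WT1 to WT3, and KO3 to KO5 were above KO1 and KO2. The difference was 2.64 within the high-bioB arrays and 3.64 within the low-bioB arrays. With the set as a block it was 3.14 and passed (adjusted p = 0.0108), and it also passed without KO1 (4.10, adjusted p = 0.0331) or with a stricter level filter (adjusted p = 0.0466). Over all alternatives the adjusted p ran from 0.0108 to 0.244 and the difference was positive in each. The other Plagl1 probe sets did not follow. 1438588_at read 5.56 ± 0.09 in the WT and 5.58 ± 0.15 in the KO embryos (SD, n = 5; difference 0.02, 95% interval -0.20 to 0.24), and 1450533_a_at lay under the filter at 4.85 and 4.77. Both were under the background level in all embryos. Probe sets whose name ends in _x_at can share probes with other transcripts, and whether that bears on 1426208_x_at was not tested.

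Since Klf5 binds GC-rich and CACCC sequences, the stretch before a RefSeq start is shown for Plagl1 and Meg3, the genes with the widest differences. Meg3 had 2 such stretches, and the one at the lower coordinate is shown. The sequences are RefSeq's, from build GRCm38.p6, read 5′ to 3′ on the plus strand up to the base before the start: chr10:13090582-13090831 for Plagl1 and chr12:109540746-109540995 for Meg3. Capitals mark matches to the motif CCNCNCCC on either strand.
Plagl1: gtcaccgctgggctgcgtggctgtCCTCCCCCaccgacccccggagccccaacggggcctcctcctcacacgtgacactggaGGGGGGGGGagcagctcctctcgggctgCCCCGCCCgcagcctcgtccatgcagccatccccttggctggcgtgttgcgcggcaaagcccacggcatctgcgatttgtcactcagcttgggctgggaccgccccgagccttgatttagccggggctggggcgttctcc
Meg3: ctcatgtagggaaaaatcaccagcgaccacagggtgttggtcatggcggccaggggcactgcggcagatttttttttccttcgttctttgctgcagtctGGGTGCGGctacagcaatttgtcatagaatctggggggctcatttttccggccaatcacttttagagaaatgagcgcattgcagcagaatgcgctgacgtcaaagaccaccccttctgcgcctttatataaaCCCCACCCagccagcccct
The Plagl1 stretch held 4 matches, of which 2 overlap in a run of G, and 19 CpG dinucleotides, and the Meg3 stretch held 2 matches and 10 CpG dinucleotides. Of all 32851 promoter stretches of this length 45.9% held the motif, and their median was 6 CpG. By gene, 20 of the 27 listed imprinted genes with a promoter in the table (74.1%; Peg12 and Zrsr1 included) held it in at least 1 stretch, against 48.5% of all genes. The richest stretch of a gene held a median of 14 CpG in these 27 and 6 over all genes. Both measures can rise with the number of stretches per gene, which was 4 for Igf2 and for Gnas. The motif share was adjusted neither for that nor for CpG content, so no enrichment is drawn from it. A match is a description of letters, and binding was not measured.

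Meg3, the maternally expressed long non-coding RNA of the Dlk1 domain, was read by 10 probe sets, of which 8 were tested. Its brightest, 1439380_x_at, read 9.29, 8.62, 8.20, 9.43 and 10.30 in WT1 to WT5 and 9.75, 10.56, 9.75, 11.85 and 10.40 in KO1 to KO5. WT5 was the only WT embryo above the lowest KO embryos, and KO4 was the highest of all. The means were 9.17 ± 0.81 and 10.46 ± 0.86 (SD, n = 5), a difference of 1.29 ± 0.47 (SE; unadjusted p = 0.0197, adjusted p = 0.353). The groups overlapped, and the difference did not pass. The name of this probe set also ends in _x_at, and whether shared probes bear on it was not tested.

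The next probe sets of Meg3 by brightness gave like values. 1452183_a_at differed by 1.48 ± 0.43 (adjusted p = 0.223), with WT embryos at 7.69 ± 0.71 and KO embryos at 9.17 ± 0.81 (SD, n = 5). 1452905_at differed by 1.37 ± 0.50 (adjusted p = 0.353) and 1426758_s_at, whose mean of 6.61 lay just under the background level, by 0.79 ± 0.27 (adjusted p = 0.306). WT5 was the highest WT embryo at each of these 4 probe sets. The other 4 tested probe sets differed by -0.06 to 0.11. Probe sets of 1 gene read the same RNA in the same embryos and are not replicates. Within the bioB sets the brightest probe set differed by 1.45 in the high and 0.80 in the low arrays.

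**Figure D3:**
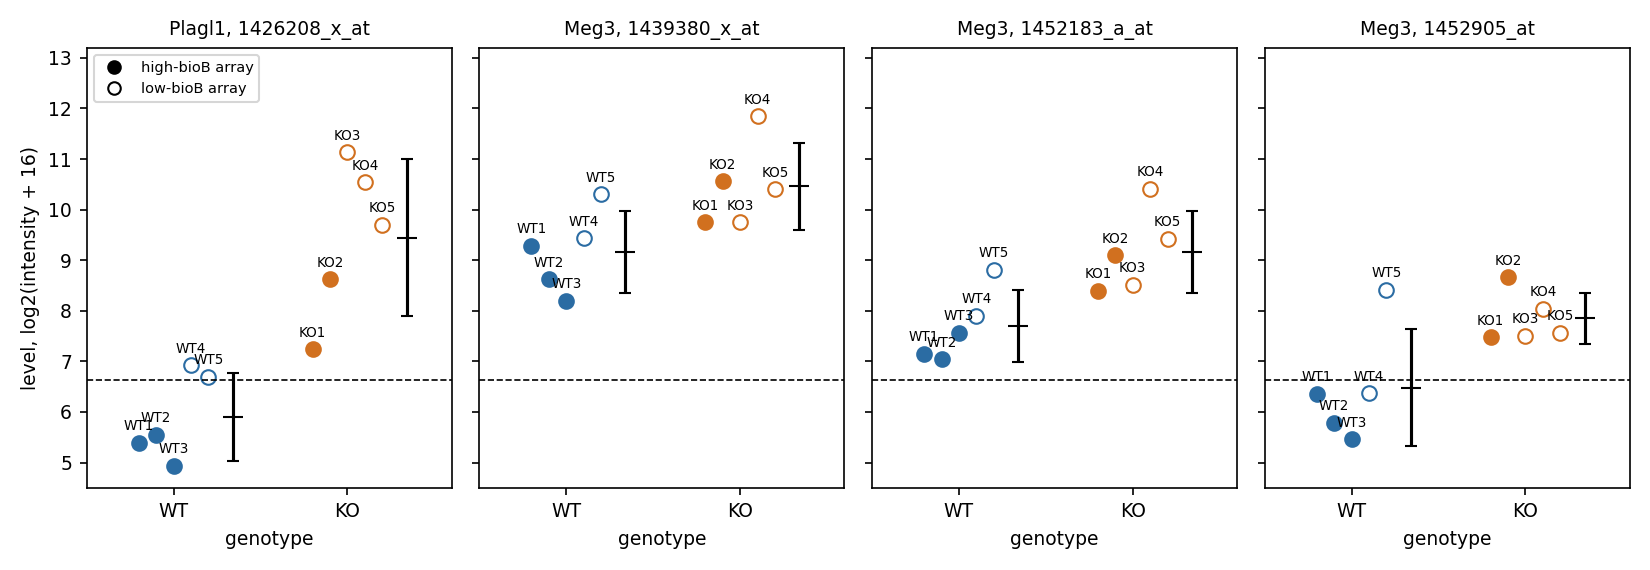
Level, log2(intensity + 16), of Plagl1 and of the 3 brightest Meg3 probe sets in every embryo by genotype; filled points are high-bioB and open points low-bioB arrays, bars give the mean and SD of 5 embryos, and the dashed line is the background level. The Plagl1 groups do not overlap, and WT5 lies among or above KO embryos at each of the Meg3 probe sets.

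In the insulin-like growth factor axis no gene passed the test. Igf2, the fetal growth factor, read 6.95 to 7.22 in the WT and 6.59 to 7.43 in the KO embryos, all but KO2 above the background level of 6.63. The difference was 0.02 (95% interval -0.33 to 0.38; adjusted p = 0.992), with WT at 7.07 ± 0.11 and KO at 7.09 ± 0.35 (SD, n = 5). Igf2r, the receptor that carries IGF2 to lysosomes for breakdown, read 8.92, 9.81, 9.70, 9.51 and 9.41 in WT1 to WT5 and 9.87, 10.03, 9.26, 9.51 and 9.57 in KO1 to KO5. WT1 was the lowest embryo and the groups overlapped (difference 0.18, 95% interval -0.25 to 0.61; adjusted p = 0.887). A further Igf2r probe set differed by -0.02. Grb10, an adaptor that dampens insulin and IGF receptor signalling, lay just under the filter (5.14 to 5.59 in WT, 5.62 to 5.76 in KO embryos). Its KO embryos were all above its WT embryos, as in 1.12% of all genes tested. At this level Grb10 was not tested, and its other probe set had means of 5.30 in the WT and 5.31 in the KO embryos.

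Gab1 and Sfmbt2 belong to the genes silenced on the maternal copy by histone methylation. Gab1, a docking protein of growth factor receptors, read 9.78, 9.26, 9.84, 9.92 and 9.01 in WT1 to WT5 and 9.42, 9.41, 9.50, 9.71 and 9.13 in KO1 to KO5. The KO embryos lay within the WT range, and the difference was -0.13 (95% interval -0.56 to 0.30; adjusted p = 0.932). At its second tested probe set (1417694_at) it was 0.34, with -0.27 in the high-bioB and 1.18 in the low-bioB arrays. Sfmbt2, a Polycomb protein needed in trophoblast, varied widely in both genotypes: 5.74, 6.75, 7.39, 6.76 and 7.08 in WT1 to WT5 and 5.60, 6.41, 8.25, 7.46 and 5.66 in KO1 to KO5. WT1, KO1 and KO5 were close to the filter and KO3 was the highest. Its difference of -0.07 had a 95% interval of -1.22 to 1.09 (adjusted p = 0.993), so a difference of over 1 log2 unit either way is within the error.

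Among the other genes above background, Peg3, a zinc finger protein of placenta and brain, was set apart by 1 embryo. It read 6.49 to 7.12 in the WT embryos and 6.92, 9.51, 6.22, 7.07 and 7.10 in KO1 to KO5. The difference was 0.58 ± 0.51 (SE; adjusted p = 0.836) and 0.04 without KO2. At a dimmer Peg3 probe set, 1417355_at, the difference was 0.60 ± 0.16 (unadjusted p = 0.00418, adjusted p = 0.192). KO2 was again the highest embryo, but KO1, KO4 and KO5 were also above every WT embryo, and the mean of this probe set (6.12) lay under the background level.

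Kcnq1ot1, the paternally expressed antisense RNA that silences its cluster, read 6.32, 6.36, 6.56, 6.97 and 6.83 in WT1 to WT5 and 7.53, 7.20, 6.63, 6.86 and 7.20 in KO1 to KO5. The difference was 0.48 ± 0.19 (SE; unadjusted p = 0.0303, adjusted p = 0.417). It was 0.95 within the high-bioB arrays, and 0 within the low-bioB arrays, where the groups overlapped. The WT mean of Kcnq1ot1 (6.61) was just under the background level of 6.63, and its KO mean was 7.09. Of the genes this RNA silences, Cdkn1c, a cyclin-dependent kinase inhibitor, read 5.68 to 6.60 in the WT and 5.24 to 5.96 in the KO embryos. It differed by -0.49 ± 0.19 (SE; unadjusted p = 0.0294, adjusted p = 0.413). Phlda2, a growth restrainer of the placenta, differed by -0.28 (adjusted p = 0.591), and Ascl2, a transcription factor of trophoblast, by -0.03 (adjusted p = 0.976). These 3 were all under the background level.

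Gnas, the stimulatory G protein subunit, read 9.76, 10.41, 10.50, 8.38 and 8.83 in WT1 to WT5 and 9.83 to 10.39 in the KO embryos. WT4 and WT5 were the lowest, and the difference of 0.47 (adjusted p = 0.821) was -0.18 without them. It was 0.14 within the high-bioB arrays and 1.23 within the low-bioB arrays, and 0.68 with the set as a block (adjusted p = 0.309). The other tested Gnas probe set, 1427789_s_at, had a mean of 5.64, under the background level, and differed by -0.01. Mcts2, a retrogene copy of a translation factor that lies within an intron of H13, read 8.72 to 9.43 in the WT and 8.79 to 10.01 in the KO embryos (difference 0.39, 95% interval -0.14 to 0.93; adjusted p = 0.687). Impact, a regulator of the GCN2 stress kinase, read 7.79 to 8.77 in the WT and 7.28 to 8.70 in the KO embryos, and all but KO2 among the latter were at or under 7.70. It differed by -0.49 (95% interval -1.10 to 0.12; adjusted p = 0.632). Its other tested probe set, 1446750_at, had a mean of 6.39, under the background level, and differed by -0.02. Ube3a, a ubiquitin ligase imprinted in neurons, read 7.70 to 8.73 in the WT and 6.75 to 8.81 in the KO embryos, KO5 being the lowest (difference -0.26, 95% interval -1.07 to 0.54; adjusted p = 0.922).

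Neighbours in a cluster could fall in different level classes, which do not rank their levels because brightness depends on probe sequence. The classes also depend on the background level chosen. With the 99th percentile of the receptor genes (7.63), Peg3 (mean 7.07), Igf2 (7.08), Kcnq1ot1 (6.85) and Sfmbt2 (6.71) would lie under it. The highest receptor gene had a mean of 7.79, above that of Plagl1 (7.67) too. In the Dlk1 domain Meg3 was above background and Dlk1, a growth regulator of the Notch ligand family, was under the filter (5.16 to 5.70). Igf2r was above background and Airn, the antisense RNA that silences it, lay between (5.74 to 6.19). Peg3 was above background while Zim1 and the deubiquitinase gene Usp29 beside it were under the filter (4.87 to 5.13 and 5.09 to 5.41). Peg3 and Usp29 start head to head. The bases between their RefSeq gene models, chr7:6730463-6730558 in GRCm38.p6, are shown on the strand of Usp29, because they separate the starts of both genes, with CpG dinucleotides, the letters that imprinting methylates, in capitals.
Peg3-Usp29: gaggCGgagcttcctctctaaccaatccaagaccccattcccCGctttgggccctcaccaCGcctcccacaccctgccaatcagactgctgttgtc
This stretch of 96 bases held 3 CpG dinucleotides and had a GC content of 60.4%. In the Prader-Willi and Angelman region Ube3a was above background. Ndn and Magel2, which encode MAGE family proteins, lay between the filter and background. Their differences were -0.28 and -0.06 (limma, adjusted p = 0.705 and 0.947). The Ndn probe set 1455792_x_at, under the filter and not tested, read 6.08, 5.61 and 6.54 in WT3 to WT5. It read 4.40 to 4.59 in the other embryos. 1435383_x_at and 1435382_at were also highest in WT5 and WT3, and 1456575_at and 1438978_x_at were not. Mest and Copg2, which overlap at their 3′ ends, were both under the filter (5.38 to 5.82 and 5.06 to 6.06).

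The embryos of 1 genotype differed more at some imprinted genes than at others. The SD between embryos within a genotype was set against that of the 500 tested probe sets closest in mean level. Plagl1 (1.26, 99.6th percentile), Peg3 (0.91, 98.6th), Sfmbt2 (0.93, 98.2nd) and Meg3 (0.84, 93.8th) lay near the top. Gab1 (0.32, 27.2nd percentile), Igf2r (0.33, 29.4th) and Igf2 (0.26, 36.0th) lay below the middle. In Peg3, KO2 lay apart from the other embryos. In Plagl1 the low-bioB arrays were the higher ones within each genotype, so spread between embryos and between array sets is not separated. Its comparison was made at its mean of 7.67, which lay between its genotype means of 5.90 and 9.44. Over the 19 genes tested the median percentile was 59.6.

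**Figure D4:**
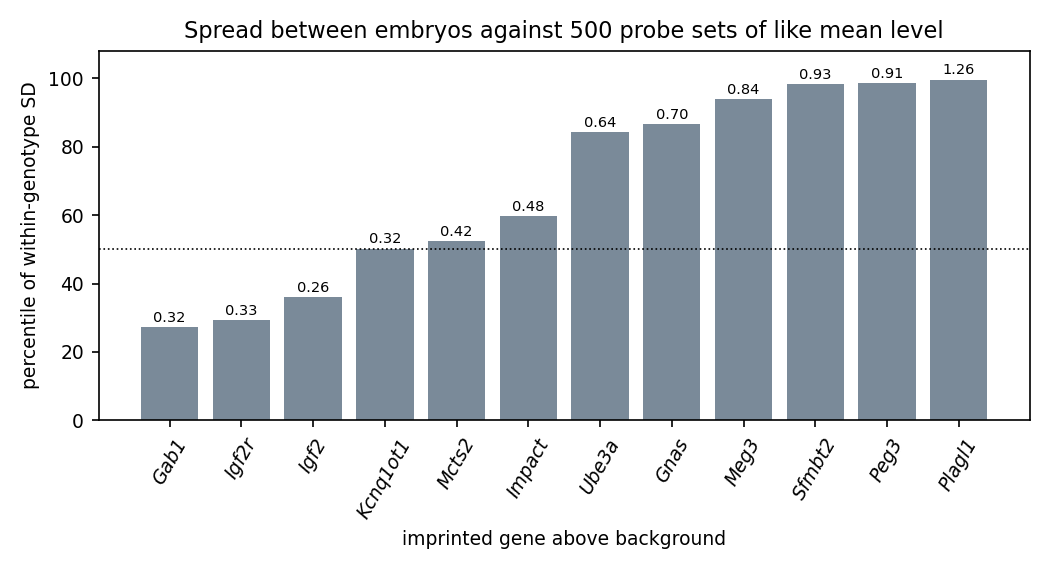
Percentile of the within-genotype SD of each of the 12 imprinted genes above background among the 500 tested probe sets closest in mean level; the number over each bar is the SD in log2 units and the dotted line is the 50th percentile. Plagl1, Peg3, Sfmbt2 and Meg3 exceed the 90th percentile, and Gab1, Igf2r and Igf2 lie under the 40th.

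A list of 45 other imprinted genes was read beside them. Of these 30 had a probe set of their own, 13 were above background and 23 were tested. By limma 0 of the 23 passed the adjusted threshold, against 0.503% of all genes, and 2 had an unadjusted p under 0.05 (8.70%, against 11.1% of all genes). H13, a signal peptide peptidase and the host gene of Mcts2, read 7.61 to 8.46 in the WT and 8.48 to 9.38 in the KO embryos, without overlap, as in 2.77% of all genes (difference 0.59 ± 0.21 SE; unadjusted p = 0.0179, adjusted p = 0.339). Slc38a4, an amino acid transporter silenced on the maternal copy by histone methylation, differed by 0.76 ± 0.30 (SE; unadjusted p = 0.0295, adjusted p = 0.413), with overlapping groups. Tssc4 of the Kcnq1ot1 cluster differed by -0.35 (adjusted p = 0.618). The median difference of this list was -0.06.

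A further list held factors that keep imprints, enzymes that set or remove DNA methylation and Polycomb subunits. Most were above background and none passed the test. Of 29 listed, 27 had a probe set of their own, all were tested and 21 were above background. By limma 0 passed the adjusted threshold and 0 had an unadjusted p under 0.05, against 0.503% and 11.1% of all genes. Their median difference was 0.10. Trim28, the co-repressor brought to imprinted regions, read 13.66 to 14.00 in the WT and 13.79 to 13.89 in the KO embryos (difference 0.06, 95% interval -0.14 to 0.26; adjusted p = 0.937). Dppa3, which protects methylation in the zygote, differed by 0.19 (95% interval -0.34 to 0.73, limma adjusted p = 0.907). WT4 and WT5 were its lowest embryos at 12.58 and 12.81. Zfp57 lay under the background level in both genotypes, at 6.15 ± 0.15 in the WT and 6.14 ± 0.15 in the KO embryos (SD, n = 5). The smallest p-values belonged to Hells, a chromatin remodeller of DNA methylation (-0.56, adjusted p = 0.570), the Polycomb subunit Suz12 (0.61, 0.666) and the maintenance methyltransferase Dnmt1 (0.35, 0.689).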

How the data were processed

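Per the labels' protocols, cDNA of individual embryos was made by the Kurimoto method, which favours the 3′ end of transcripts, and biotin-labelled; per the series' description it was analysed in GeneSpring GX. The authors deposited 1 intensity per probe set and array, on a linear scale as judged from the values (array medians 40.0 to 43.6); for background correction, summary and scaling, no source used here gives the method. The number of arrays limits the precision.

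Of 38676 probe sets, 53 were controls and were left out. The platform annotation gave 1 symbol to 30866, of which 30709 matched a RefSeq gene identifier, and several to 781, which were not named. Probe sets with a mean log2(intensity + 16) below the 40th percentile were left out, and 23174 were tested with limma 3.58.1 in R 4.3.3 (two-sided, no covariate, Benjamini-Hochberg over all, threshold 0.05). In a simulation of 23174 probe sets with independent normal noise, 50 were altered by each of 0.5, 1, 2 and 4 log2 units. The test found 18%, 64%, 84% and 100% of them, with 8 false among 141 calls. Named in full are the members above background or without overlap, and from each further list those that passed and the 3 of smallest p; Dppa3, Trim28 and Zfp57 were added after their values were seen. The members and lists were chosen with earlier results of these data known. Alternatives were quantile normalization, median centring, other level filters and pseudocounts, an intensity trend with a robust prior, the embryo number or bioB set as a block, each bioB set alone, and leaving out WT4 with WT5 or each embryo. The bioB sets split at a gap of 1.66 log2 units in the mean of 6 control probe sets.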

Additional observations from a re-analysis of the deposited data

Results flagged for a closer look

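Within the groups of 5 embryos, each of the 12 genes above background was examined for an embryo far from the others. This gave 1 such embryo in 24 groups, where chance gives about 1 in 20. For Peg3, KO2 read 9.51, while the other KO embryos lay between 6.22 and 7.10.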

How the results depend on the processing

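Of 264 differences of the 12 genes above background under the alternatives, 241 kept their direction and their side of the threshold, 3 (all Plagl1) newly passed it and 20 turned in sign, none of them called. The count of these imprinted genes that passed was 0, and 1 (Plagl1) with the filter at the 60th percentile, with the bioB block or without KO1, so it ranged from 0 to 1 over the single embryos left out. The counts of other imprinted genes and of maintenance and methylation factors that passed were 0 under every alternative. The differences that turned were those of Sfmbt2 (0.01 with a pseudocount of 64, 0.21 in the low-bioB set, 0.05 without WT4 and WT5, -0.46 to 0.20 leaving out single embryos), Igf2 (-0.01 with the bioB block, -0.14 in the high-bioB set, -0.06 to 0.15), Ube3a (0.04 in the high-bioB set, -0.51 to 0.01), Igf2r (-0.02 in the low-bioB set), Kcnq1ot1 (0 in the low-bioB set) and Gnas (-0.18 without WT4 and WT5). The cause was not tested. Over all probe sets 85 passed, 24 with the embryo number as a replicate block, 1 in the high-bioB and 0 in the low-bioB set alone (fewer embryos), and 45 to 63 leaving out single embryos. Klf5 did not pass in the low-bioB set alone (-5.05, adjusted p = 0.0951). Under the embryo-number block Plagl1 differed by 3.54 (limma, adjusted p = 0.120). Same-numbered embryos correlated at -0.03 to 0.18 in their deviations. Differently numbered embryos were not compared, so this does not decide whether the number marks a pairing. With background at the 40th percentile of all probe sets 19 genes were above it, and with the 99th percentile of the receptor genes 8 were.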
